A study of Mus musculus with 4 samples.

Results

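The TNF receptor associated factors Traf1 to Traf7, their binding partner Tank, and Tradd and Ripk1 of the TNF receptor complex were examined in the brains of newborn mice whose mothers had received titanium dioxide nanoparticles (TiO2-NP) or vehicle. All probes were taken whose RefSeq accession in the scanner output belongs to 1 of these 10 genes, whatever their signal. This gave 13 probes on 22 spots, of 55681 probes that are not controls, and the 10 genes are among 20660 that could be named. Tank, Traf2 and Traf7 had 2 probes each and the other genes had 1. A probe is called detected here on an array where the scanner software marked it as well above background. Every gene had at least 1 probe detected on all 4 arrays, and of the 13 probes only the dimmer Traf7 probe was detected on none.

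TRAF proteins are adaptors inside the cell that couple receptors of the TNF, interleukin-1 and Toll-like families to kinases. When TNF binds its receptor, TRADD is recruited first and brings in TRAF2 and RIPK1, on which ubiquitin chains are built that activate the kinases upstream of NF-kB and JNK. In the brain these routes are known from inflammatory signalling in glia and from the survival and death of neurons.

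The mice were C57BL/6J (labelled C57BL/6). Dams of the TiO2-H groups received 100 μg TiO2-NP per mouse in 1 dose, as 25 μL of a suspension of 4 μg/μL sprayed into the trachea, and dams of the Sham groups received 25 μL of the vehicle, which was made by removing the particles from such a suspension. The day of exposure was gestational day 10.5 by the treatment protocol, while the source names of the samples give day 14, and the labels write the concentration per litre. Whole brains were taken on postnatal day 1, and the total RNA of 2 offspring of each of 5 Sham dams or 6 TiO2-H dams was pooled for each labelled sex. Each of the 4 groups (2 exposures by 2 labelled sexes) was thus 1 pool on 1 one-color array, which reports the amount of an mRNA by the brightness of its spot. The spread between litters cannot be seen in such pools, and in whole tissue fewer cells of a type and less RNA per cell cannot be told apart.

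Precision is limited by the number of arrays. All 4 shared 1 slide, with the Sham arrays in 1 row and the TiO2-H arrays in the other, so that exposure, litters and slide row cannot be told apart. Sex-linked RNAs went against the sex labels of the TiO2-H arrays. Xist, the RNA of the inactive X chromosome, had a processed signal of 276 on the female Sham pool and 347 on the TiO2-H pool labelled male. It was not detected elsewhere. The Y-linked Eif2s3y had a signal of 3519 on the male Sham pool, 419 on the female Sham pool and 4345 on the TiO2-H pool labelled female. It was not detected on the TiO2-H pool labelled male. For this reason the TiO2-H pools are called by their labels throughout, and ratios were also taken with them exchanged. As a check of the tissue, all 6 neuron markers were well above background on the 4 arrays, and Stmn2, a tubulin-binding protein of growing neurons, had signals between 130716 and 147306.

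The promoters of the members, from 250 bases before to 50 bases after the start of transcription, were matched by symbol in a RefSeq table of GRCm38.p6. It held 13 promoters of 9 members, all but Tradd. Those of Traf2 and Traf1 are shown because probes of these genes had the ratios farthest from 0. The Traf2 promoter lies at chr2:25546891-25547190 and the Traf1 promoter at chr2:34961723-34962022, both on the minus strand, and they are printed 5′ to 3′ in the direction of transcription. Capitals mark a GC box (GGGCGG) or a CCAAT box (CCAAT) on either strand.
Traf2: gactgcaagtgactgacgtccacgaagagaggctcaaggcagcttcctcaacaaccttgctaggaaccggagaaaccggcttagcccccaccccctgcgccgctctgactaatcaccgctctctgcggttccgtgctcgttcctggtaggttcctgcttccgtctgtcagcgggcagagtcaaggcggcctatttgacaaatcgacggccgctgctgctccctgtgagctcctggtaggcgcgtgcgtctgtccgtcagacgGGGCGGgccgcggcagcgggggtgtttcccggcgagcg
Traf1: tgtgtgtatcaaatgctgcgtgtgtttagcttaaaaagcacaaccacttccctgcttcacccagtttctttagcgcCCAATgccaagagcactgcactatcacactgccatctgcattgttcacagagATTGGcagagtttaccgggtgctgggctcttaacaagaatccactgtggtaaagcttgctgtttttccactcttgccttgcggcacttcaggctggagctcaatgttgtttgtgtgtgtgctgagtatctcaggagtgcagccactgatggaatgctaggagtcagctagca

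The Traf2 promoter held 1 GC box and the Traf1 promoter 2 CCAAT boxes, and neither held the kappa-B consensus, the binding motif of NF-kB, or a TATA box (TATAAA). Over the 13 promoters, the kappa-B consensus was found in 5, all of them promoters of Tank and Traf3, against 8.46% of 32851 promoters in the table. The 4 Tank promoters form overlapping pairs that share their matches, so that these are 3 distinct matches in 2 genes. A GC box was found in 9 promoters (35.7% of all promoters), a CCAAT box in 4 (37.4%) and a TATA box in 2 that share 1 match (13.6%). Both strands were searched, and in the Tank promoters with both motifs the kappa-B match overlapped a GC box. A match is a description of the letters, and no binding was measured.

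Only Traf2 passed the fold thresholds of the study, 1.5-fold or more or 0.67-fold or less, and it did so with 1 of its 2 probes. Signals were divided by the 75th percentile of each array before ratios were taken. The male pair and the female pair are TiO2-H over Sham by label, and where 4 signals follow each other the order is male and female Sham, then TiO2-H labelled male and female. In the male pair, 1 of the 12 detected member probes was at or below 0.67-fold, where 3.29% of all probes compared were, and none was at or above 1.5-fold, where 4.1% were. In the female pair the counts were again 1 and 0 of 12, with 3.31% and 4.34% of all probes. It was the same Traf2 probe in both labelled pairs, and 22 of 29409 probes well above background on all 4 arrays (0.0748%) were at or below 0.67-fold in both. The 12 member probes were all among these 29409. Of the 29409, 1.06% were at or below 0.67-fold and 1.81% at or above 1.5-fold in the male pair. In the female pair these shares were 1.23% and 1.15%. No probe of 35626, and so no member, had an adjusted p under 0.05 when both TiO2-H arrays were tested against both Sham arrays with limma and Benjamini-Hochberg adjustment (percent called 0), and 4506 probes (12.6%) had an unadjusted p under 0.05. Both Traf2 probes were among these 4506, both lower in TiO2-H, a direction found for 4.32% of all probes. The dimmer one stayed under 0.05 in every alternative fit that kept all 4 arrays and the brighter one in 6 of them. These fits are not independent of each other. All but 1 start from the same processed signals, and the fit on the deposited value table repeats the reported one with equal values. The smallest two-sided p that exact permutation of 2 against 2 arrays allows is 0.333.

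**Figure D1:**
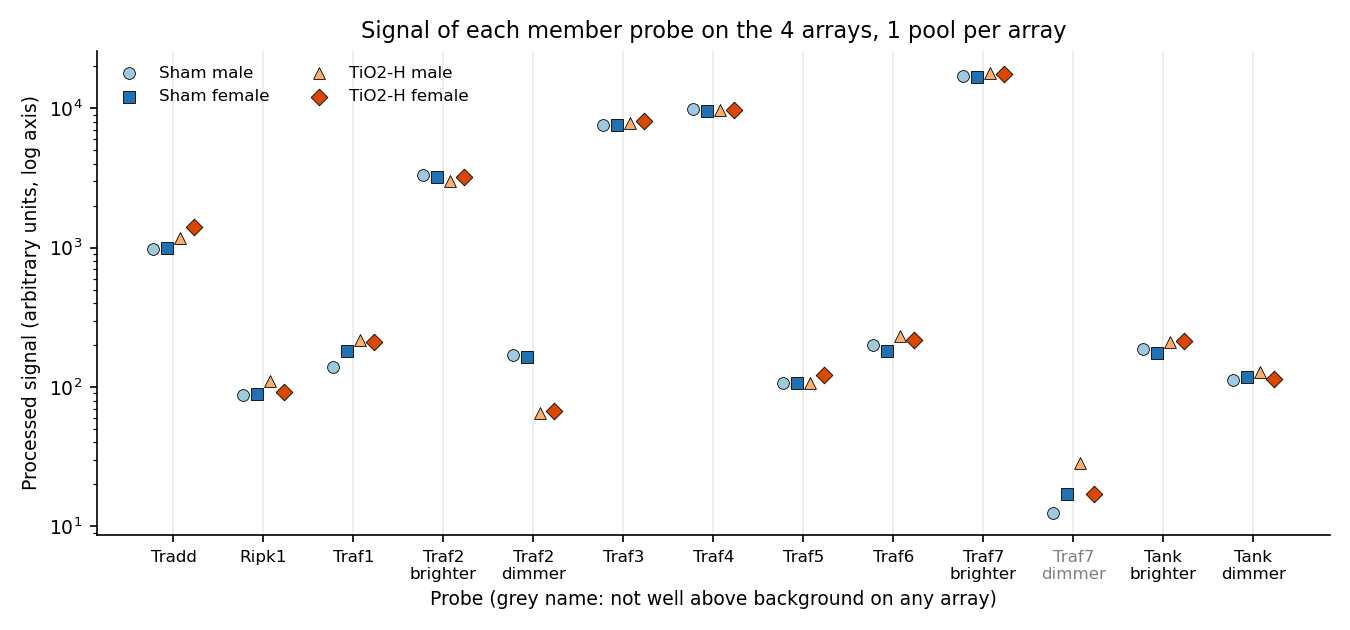
Processed signal (log axis, arbitrary units, not scaled between arrays) of each of the 13 member probes on the 4 arrays, 1 point per array. The dimmer Traf2 probe lies at 165 and 169 on the Sham arrays and at 64.7 and 67.1 on the TiO2-H arrays, while the points of most other probes nearly coincide. Levels of different probes cannot be compared with each other.

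Traf2 is the adaptor that binds TRADD and the TNF receptors and carries the ubiquitin ligases cIAP1 and cIAP2 into the complex. Its dimmer probe (A_55_P2092958, NM_009422) had processed signals of 169 on the male Sham pool, 165 on the female Sham pool, 64.7 on the TiO2-H pool labelled male and 67.1 on the TiO2-H pool labelled female. Both TiO2-H arrays lay below both Sham arrays, and the arrays of 1 exposure hardly differed from each other. The ratio of TiO2-H over Sham was 0.357 in the male pair (log2 ratio -1.48, error given by the scanner software 0.27) and 0.373 in the female pair (log2 ratio -1.42, error 0.25). With the TiO2-H arrays exchanged the ratios were 0.361 (TiO2-H female over Sham male) and 0.369 (TiO2-H male over Sham female), so that the difference was as large with the labels exchanged. The Sham female over Sham male ratio of the same probe was 0.991.

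Over both labelled sexes the log2 difference of the dimmer Traf2 probe was -1.45 with a standard error of 0.045 in limma (95% interval -1.59 to -1.32), with an unadjusted p of 3.91e-05 and an adjusted p of 0.386. By unadjusted p it ranked 2 among the 35626 probes tested. Before background subtraction the median signal of its spot was 213 and 202.5 on the Sham arrays and 142 and 136.5 on the TiO2-H arrays, over local backgrounds between 26 and 29. On every array its processed signal was lower than this median minus the local background, and by more on the TiO2-H arrays. How much of the log2 difference comes from this software correction was not tested. With a background correction by normexp on these medians, with an offset of 50, the log2 difference was -0.66. Every other processing started from the same processed signal of the scanner software, so that its background correction was not varied there. With these, and with each array left out in turn, the log2 difference lay between -1.48 and -1.34. The 56 detected probes within 5 rows and columns of this spot had a median log2 ratio of 0.12 in the male pair and 0.14 in the female pair, and none of them was at or below 0.67-fold.

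The brighter Traf2 probe (A_55_P2092963), which carries the same accession, had signals of 3303 and 3234 on the male and female Sham pools and of 3018 and 3197 on the TiO2-H pools labelled male and female. The TiO2-H arrays were again below the Sham arrays, but by far less. Its log2 ratios were -0.23 and -0.15 in the labelled pairs, each with a software error of 0.20. The limma difference was -0.19 (standard error 0.051, unadjusted p 0.0305, adjusted p 0.386), and -0.074 without scaling between arrays. The log2 ratios of the 2 probes thus differed by 1.26 in the male pair and by 1.28 in the female pair. Of 3453 accessions with at least 2 probes well above background on all 4 arrays, 3 (0.0869%), Traf2 included, held a pair of probes whose log2 ratios differed by at least 1 in the same direction in both labelled pairs. The files give no positions of the probes within the transcript, and the source of the difference between them was not tested.

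**Figure D2:**
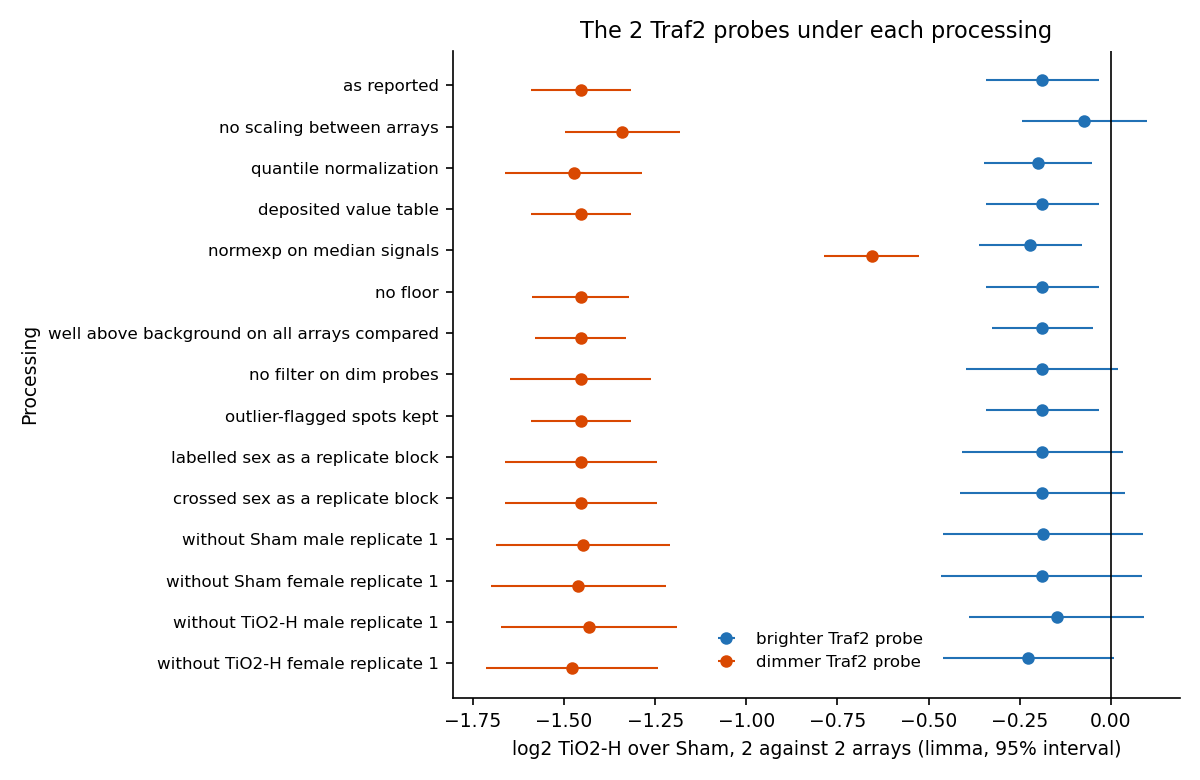
Log2 difference between both TiO2-H and both Sham arrays for the 2 Traf2 probes (limma, bars are 95% intervals), as reported and under 14 other ways of processing or choosing arrays. The dimmer probe lies between -1.48 and -1.34 in all but the normexp correction, where it lies at -0.66, and the brighter probe between -0.23 and -0.074. Only the normexp correction starts from the median signals, and all others start from the same processed signal.

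Traf1 is an adaptor without the ubiquitin ligase domain of its relatives, binds to TRAF2 and is known as a target gene of NF-kB. Its probe (NM_009421) had signals of 140 on the male Sham pool, 180 on the female Sham pool, 216 on the TiO2-H pool labelled male and 209 on the TiO2-H pool labelled female. Both TiO2-H arrays lay above both Sham arrays, but the Sham arrays differed from each other by more than the TiO2-H arrays did. The log2 ratio was 0.53 (1.44-fold, software error 0.22) in the male pair, 0.085 (error 0.22) in the female pair and 0.39 for Sham female over Sham male. The limma difference was 0.31 (standard error 0.16, adjusted p 0.491). It was 0.11 without the male Sham pool and 0.50 without the female Sham pool, and with the normexp correction the groups overlapped.

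Tradd and Ripk1 act next to the receptor. Tradd (NM_001033161), the death domain adaptor that binds TNF receptor 1, had signals of 986 and 994 on the male and female Sham pools and of 1178 and 1410 on the TiO2-H pools labelled male and female. Both TiO2-H arrays were above both Sham arrays, and the Sham arrays nearly coincided. The log2 ratios were 0.16 and 0.37 (software error 0.20 each), and the limma difference was 0.27 (standard error 0.11, adjusted p 0.433). Ripk1 (NM_009068), the kinase that serves as the scaffold for the ubiquitin chains, had signals of 87.5, 88.9, 110 and 91.6 on the 4 arrays. The groups overlapped after scaling, the log2 ratios of 0.23 and -0.088 lay on opposite sides of 0 within their software error of 0.25, and the limma difference was 0.073 (standard error 0.12, adjusted p 0.773).

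Traf3 and Traf6 serve mainly receptors other than TNF receptor 1, and Traf5 was read beside them. Traf3 (NM_011632), a negative regulator of the noncanonical NF-kB route, had signals of 7627 and 7565 on the Sham arrays and of 7867 and 8140 on the TiO2-H arrays, with log2 ratios of -0.053 and -0.025. Traf5 (NM_011633), a close relative of Traf2, had signals of 106, 107, 107 and 122, with log2 ratios of -0.088 and 0.062, and its groups overlapped. Traf6 (NM_009424), the ubiquitin ligase downstream of interleukin-1 and Toll-like receptors, had signals of 202 and 183 on the Sham arrays and of 232 and 219 on the TiO2-H arrays, with log2 ratios of 0.10 and 0.13. After scaling, Traf3 lay slightly below and Traf6 above both Sham arrays on both TiO2-H arrays. Each of these ratios was smaller than the software error of its spot, which was between 0.20 and 0.24. The adjusted p of limma was 0.686 for Traf3, 0.947 for Traf5 and 0.531 for Traf6.

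Traf4 and Traf7 are the members least tied to TNF receptors, and Traf4 is known from embryonic development, where it is expressed in the nervous system. The probe of Traf4 (NM_009423) was spotted 10 times, so that its error on an array was measured. Its signal was 9843 ± 316 on the male Sham pool, 9598 ± 203 on the female Sham pool, 9816 ± 373 on the TiO2-H pool labelled male and 9687 ± 347 on the TiO2-H pool labelled female (SD over 10 spots of 1 array). The unscaled signals overlapped, and after scaling the TiO2-H arrays lay below the Sham arrays, with log2 ratios of -0.10 and -0.12 and a limma difference of -0.11 (standard error 0.042, adjusted p 0.418), which was 0.0043 without scaling. The brighter Traf7 probe (A_55_P2056035, NM_153792) had signals of 17056 and 16923 on the Sham arrays and of 18020 and 17648 on the TiO2-H arrays, with log2 ratios of -0.019 and -0.070 and an adjusted p of 0.649 in limma. The dimmer Traf7 probe (A_55_P2085370) read between 12.5 and 28.4 and was detected nowhere, so that no ratio is given.

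Tank binds TRAF proteins and the kinase TBK1 and is known as a negative regulator of NF-kB. Its brighter probe (A_52_P578266, NM_011529) had signals of 189 and 174 on the male and female Sham pools and of 209 and 215 on the TiO2-H pools labelled male and female, and the TiO2-H arrays were above the Sham arrays. Its log2 ratios were 0.049 and 0.17 with a software error of 0.22 each. The dimmer probe (A_55_P2109827, NM_001164071) read 113, 119, 128 and 115, with log2 ratios of 0.084 and -0.18, and its groups overlapped. The adjusted p of limma was 0.478 and 0.799 for the brighter and the dimmer probe.

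**Figure D3:**
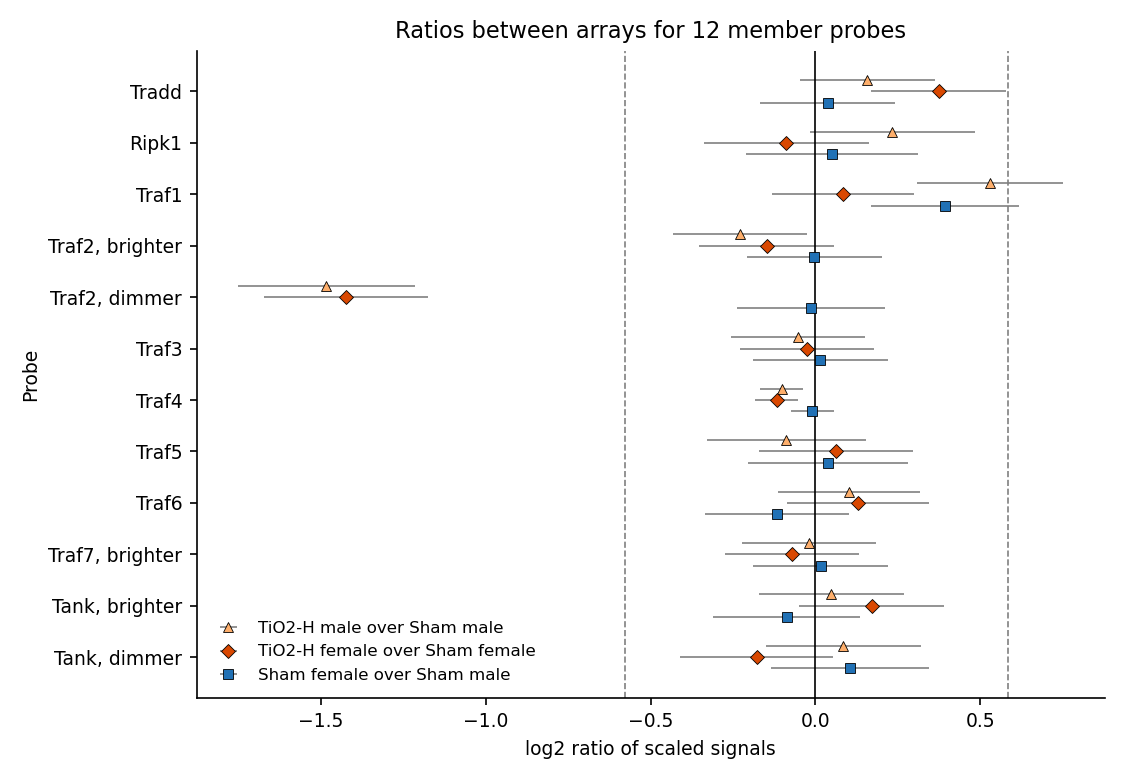
Log2 ratio of scaled signals for the 12 detected member probes in the male pair (triangles), in the female pair (diamonds) and between the 2 Sham arrays (squares). Bars are the errors given by the scanner software for 1 spot (for Traf4, 10 spots) and dashed lines mark 1.5-fold and 0.67-fold. Only the dimmer Traf2 probe lies beyond a dashed line, at -1.48 and -1.42, with a Sham ratio close to 0.

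Of the 12 detected probes, 4 (Tradd, Traf1, Traf6 and the brighter Tank probe) were higher on both TiO2-H arrays than on both Sham arrays, a pattern found for 28.9% of all probes well above background on the 4 arrays. The TiO2-H arrays were below both Sham arrays for 5 (both Traf2 probes, Traf3, Traf4 and the brighter Traf7 probe), against 25.8% of all probes. These counts rest on the scaling, since without it 8 probes were above and 2, both of Traf2, below. Without it, 65.7% of all named genes well above background on the 4 arrays were above and 4.38% below, each read by its brightest probe. Leaving out the scaling raised the median log2 difference over all probes by 0.11, and the bright probes of Traf3, Traf4 and Traf7 turned from lower to higher or to no difference with it. As a measure of what arrays of different exposure showed in general, the robust SD of the log2 ratio over brighter probes was 0.12 in the male pair and 0.13 in the female pair, while it was 0.079 for the Sham arrays and 0.074 for the TiO2-H arrays against each other. Over probes dimmer than 0.25 of the 75th percentile it was between 0.21 and 0.26 in these 4 comparisons. The median log2 ratio of these dim probes was 0.075 in the male pair and 0.034 in the female pair.

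The rest of the pathway was read with 8 lists of 121 genes, each gene by its brightest detected probe. Of 93 genes compared in the male pair, none reached 1.5-fold and 4 were at or below 0.67-fold, against 2.08% and 1.83% of all named genes. Of 92 compared in the female pair, 1 reached 1.5-fold and 3 were at or below 0.67-fold, against 2.49% and 1.99%. Their median log2 ratio was 0.0028 and 0.020 in the labelled pairs, beside 0.0027 and 0.016 over all named genes. No gene of the lists had an adjusted p under 0.05 in limma, and 11 of 94 (11.7%) had an unadjusted p under 0.05, beside 12.6% of all probes tested. Of these 11, 4 were higher and 7 lower in TiO2-H. Over all probes tested, 8.33% were higher and 4.32% lower with such a p.

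The only gene past the threshold in the same direction in both labelled pairs was Cxcl10, a chemokine induced by interferon and NF-kB. Its signals were 59.4 and 64.8 on the Sham arrays, 40.1 on the TiO2-H pool labelled female and 24.9, where it was not detected, on the TiO2-H pool labelled male. Its log2 ratios were -1.11, a bound set by the lowest signal that counted as detected on that array, and -0.82, with an adjusted p of 0.386 in limma. The other genes past a threshold at their brightest probe are named after their values were seen. In the male pair Il1r1, Tnfrsf13c and Traf3ip2 were lower. In the female pair Icam1 was higher, and Ccl2 and Tnfrsf25 were lower. The genes lower in the male pair were dim and brightest on the male Sham pool. Il1r1 read 67.7 there and 31.4 to 35.8 elsewhere, Tnfrsf13c 58.0 and 29.5 to 42.3, and Traf3ip2 63.6 and 39.6 to 53.0. Il1r1 was detected on 2 arrays, and Tnfrsf13c and Traf3ip2 on 3. Icam1 was detected only on the TiO2-H pool labelled female, at 49.5. Tnfrsf25, a death receptor, had a signal of 705 on the female Sham pool and of 111 to 141 on the other 3. The log2 ratio of -2.45 thus came from the female Sham pool.

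Among ligands, 9 of 17 TNF superfamily genes with a probe were detected on at least 1 array, and Tnf itself was on none. The brightest were Tnfsf12 (TWEAK), Eda and Tnfsf9, with log2 ratios between -0.087 and 0.18 at their brightest probes. The dimmer Tnfsf12 probe, well above background on all arrays, had -0.61 in the male pair and 0.0089 in the female pair. The median ratio of the 7 ligands well above background on all arrays was 0.17 in the male pair and 0.070 in the female pair. With quantile normalization these medians were 0.074 and 0.078. Among TNF receptors, 19 of 25 were detected, the brightest being Tnfrsf9, Tnfrsf19 and Ngfr, with log2 ratios between -0.10 and 0.062. Tnfrsf1a, the receptor that recruits TRADD, had signals of 1266, 1194, 1285 and 1263 with log2 ratios of -0.077 and -0.050, and Tnfrsf1b, which binds TRAF2 directly, was detected on none. The receptor list had a median of 0.029 and 0.0023, with 5 of 17 genes higher and 4 lower on both TiO2-H arrays than on both Sham arrays, beside 30.2% and 26.6% of all named genes.

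Among the partners in the complex (ubiquitin enzymes, the TAK1 and TBK1 kinases with their subunits, Fadd and caspase-8), 21 of 23 were detected. Ube2v1, Ube2n and Tbkbp1, the brightest, had log2 ratios between -0.14 and 0.15, and of the ubiquitin ligases that TRAF2 carries, Birc2 (cIAP1) had -0.18 and -0.030 while Birc3 (cIAP2) was not detected. In the interleukin-1 and Toll-like receptor route, 8 of 12 genes were detected, and Irak2, Tlr9 and Tlr7 had log2 ratios between -0.19 and -0.025 at their brightest probes. The dimmer Tlr7 probe, well above background on all arrays, had -0.75 and 0.48. It read 76.4 and 65.6 on the Sham arrays and 48.6 and 100 on the TiO2-H arrays. Of the 8 TRAF-interacting proteins, Trafd1, Siva1 and Tnik had between -0.17 and 0.17. Of 8 inhibitors and deubiquitinases well above background on all arrays, 6 were lower and none higher on both TiO2-H arrays, beside 26.6% and 30.2% of all named genes. The medians were -0.052 and -0.10. Without scaling 1 was lower and 3 were higher, beside 4.38% and 65.7% of all named genes, and the medians were 0.046 and 0.027. Their brightest genes, Nfkbia, Tnip1 and Nfkbib, which hold back NF-kB, had log2 ratios between -0.14 and -0.0011.

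Downstream, 12 of 13 genes of IKK, NF-kB and JNK signalling were detected, with medians of 0.061 and 0.053, and Mapk10, Rela and Mapk9 had log2 ratios between -0.043 and 0.16. Of 18 NF-kB target genes, 12 were detected, while Il6, Il1b, Cxcl1, Cxcl2, Ccl20 and Birc3 were detected on no array. Sod2, Nfkbia and Vcam1, the brightest, had between -0.14 and 0.080. The medians of the 10 target genes well above background on all arrays were -0.096 and -0.12, and 0.0025 and 0.010 without scaling. The lists overlap: Nfkbia and Tnfaip3 are also among the inhibitors, and Nfkb2 and Relb among the genes of IKK, NF-kB and JNK signalling.

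**Figure D4:**
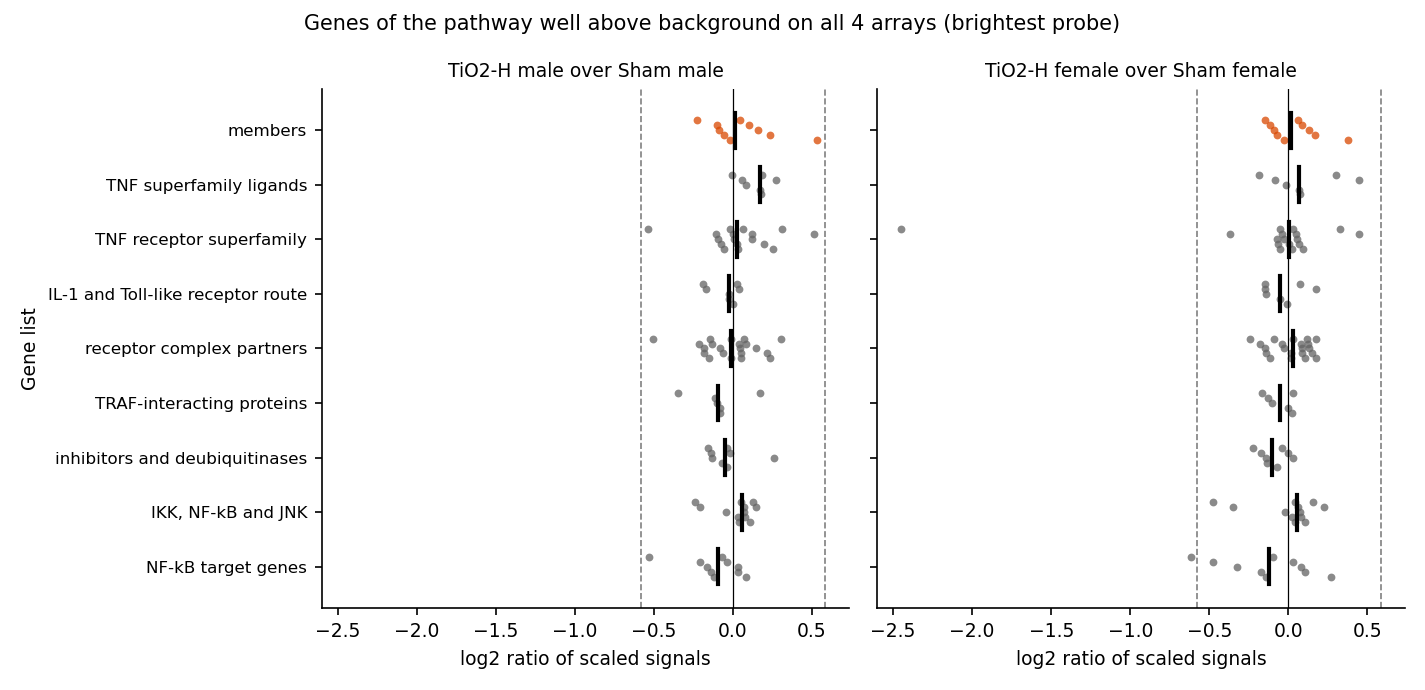
Log2 ratios of TiO2-H over Sham in the male pair (left) and the female pair (right) for the members and 8 pathway lists, 1 point per gene well above background on all 4 arrays, read by its brightest probe, so that Traf2 appears with its brighter probe. Black bars are list medians, between -0.12 and 0.17, and dashed lines mark 1.5-fold and 0.67-fold. The lone point at -2.45 is Tnfrsf25.

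Markers of cell types that the brain samples hold were read beside these results. The summed scaled signal of 10 microglia markers was 38.4 and 40.3 on the Sham arrays and 41.6 and 44.8 on the TiO2-H arrays, and its order was set by the brightest probe of Itgam (log2 ratios 0.21 and 0.22). That probe had signals of 20474 to 27953, while the other Itgam probes read 43.3 to 60.8 and 76.3 to 89.4. Their log2 ratios were 0.39 and 0.024 for the dimmest and -0.073 and -0.36 for the next. The source of this difference between probes was not tested. Without Itgam the other 9 summed to 13.1 and 12.7 on the Sham arrays and to 12.4 and 12.7 on the TiO2-H arrays. Of the 9 microglia markers well above background on all arrays, 4 were higher and 3 lower on both TiO2-H arrays than on both Sham arrays, beside 30.2% and 26.6% of all named genes. Both sets are named, like the higher endothelial markers, after their values were seen. The higher ones were Itgam, Aif1, Cx3cr1 and P2ry12, with log2 ratios between 0.0053 and 0.48 at their brightest probes. The lower ones were C1qa, C1qb and C1qc, subunits of complement C1q, with log2 ratios between -0.25 and -0.047.

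The sum of 6 endothelial markers was 22.9 and 21.7 on the Sham arrays and 22.9 and 22.2 on the TiO2-H arrays. Its brightest probe, of Kdr, had log2 ratios of -0.098 and -0.084, while the second Kdr probe had 0.36 and 0.34. Without Kdr the other 5 summed to 8.11 and 7.79 on the Sham arrays and to 9.04 and 9.05 on the TiO2-H arrays. The median log2 ratio of the 6 genes, each by its brightest probe, was 0.19 in the male pair and 0.15 in the female pair. On both TiO2-H arrays 3 were higher (Flt1, Tie1 and Cldn5, with log2 ratios between 0.14 and 0.53) and 1, Kdr, lower. Over all named genes the shares were 30.2% and 26.6%. Erythroid markers summed to 62.7 and 60.2 on the Sham arrays and to 51.6 and 51.9 on the TiO2-H arrays, where 4 of 5 on the array were detected and alpha-globin Hba-a1, which made up nearly all of the sum, had log2 ratios of -0.28 and -0.22. Sums of 6 neuron markers lay between 345 and 358, of 6 radial glia and astrocyte markers between 115 and 133 and of 7 markers of meninges and choroid plexus between 102 and 106 over the 4 arrays, and Stmn2, Fabp7 and Ttr, their brightest genes, had log2 ratios between -0.086 and 0.27. With each gene read by its brightest detected probe, no marker of these 6 lists passed a fold threshold in either labelled pair. The dimmer probe of Folr1, a gene of the meninges and choroid plexus list, was below 0.67-fold in the female pair. It had signals of 99.5 and 190 on the male and female Sham pools. On the TiO2-H pools labelled male and female they were 135 and 104. The part of cell composition in the values of Traf2, Traf1 and Tradd was not tested.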

How the data were processed

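The authors deposited the Feature Extraction output (version 10.10.1.1 per the file headers) of each array and a value table, both as intensity. The deposited processed signal had been background-corrected by the scanner software and was not scaled between arrays. The table held the same intensity for all 59305 spots that are not controls (tolerance 0.001%). The processed signal is not simply the median signal minus the local background, and the other steps of the software were not examined. The array design is annotated on mm9. Probes were named through their RefSeq accession in a table of GRCm38.p6, which named 94.9% of probes with such an accession.

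The processed signal was divided by the 75th percentile of its array (810 and 795 for Sham, 867 and 871 for TiO2-H) and taken to log2. Between 138 and 181 spots per array flagged as outliers were left out, spots of a probe were averaged, and no spot was saturated. Between 56.2% and 61.2% of spots were well above background. Comparisons took probes detected (well above background) on 1 or more of the arrays involved. An array where such a probe was not detected entered with the probe's signal or, if higher, the lowest detected signal of that array (23.3 to 31.7). For 399 probes with 10 spots each, the median SD of log2 signal within an array was between 0.064 and 0.067 where detected, and between 0.14 and 0.17 for dim detected probes.

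No test was made within a labelled sex, where each group is 1 array. For both TiO2-H against both Sham arrays, limma (version 3.58.1, R 4.3.3) was used, with p-values adjusted over all probes by Benjamini-Hochberg, on the assumption that the pools of the labelled sexes are replicates of an exposure. On simulated data with 200 of 35626 probes changed by 3-fold this fit recovered 47.5% of them at an adjusted p under 0.05 and called 0.0282% of unchanged probes. The simulated noise was independent between arrays, with no effect of slide row or litters shared by the arrays of an exposure. These rates hold for such noise only and cannot be carried over to the 4 arrays here. Other steps used Python 3.11.15, numpy 2.4.6, pandas 2.3.3 and matplotlib 3.10.9. The members, lists and tests were chosen with earlier results of these data known. Named were every probe of the 10 members, the 3 brightest genes of each pathway list and any past the threshold the same way in both labelled pairs, the brightest gene of each marker list, and sex-linked genes. Alternatives tried were normexp, quantile normalization, unscaled signals, the value table, no floor, other rules on dim or outlier spots, labelled or crossed sex as a block, each array left out, 2-fold thresholds, crossed pairs and the mean of a gene's probes. A planned normexp correction on mean signals was made on median signals, since mean signals were not in the files. Protein and probe sequences were not used here.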

Additional observations from a re-analysis of the deposited data

Results flagged for a closer look

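Sex-linked RNAs had opposite directions in the labelled pairs, and these differences were not tested. The log2 ratio of TiO2-H over Sham was 3.42 in the male pair and -3.69 in the female pair for Xist, -7.00 and 3.24 for Eif2s3y, -5.69 and 3.52 for Ddx3y, and -0.86 and 1.03 for Uty. Where a probe was not well above background on an array (Xist on the male Sham pool and the TiO2-H pool labelled female, the Y-linked genes on the TiO2-H pool labelled male, and Uty on the female Sham pool too) the value rests on the lowest signal well above background there. No member probe moved in opposite directions by more than its software error in both labelled pairs.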

How the results depend on the processing

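The dimmer Traf2 probe was at or below 0.67-fold in both labelled pairs under every alternative run. All of these but normexp start from the same processed signal of the scanner software. No probe had an adjusted p under 0.05 in limma under any alternative that kept all arrays. For this Traf2 probe it lay between 0.177 and 0.550. Of 35626 probes, 4506 had an unadjusted p under 0.05, against 7988 without scaling, 2921 with the labelled sex as a replicate block, 2922 with crossed sex as the block and 2529 to 4039 with an array left out (2529 without the TiO2-H pool labelled male and 2674 without that labelled female). The replicate numbers pair no samples, since each group has 1 array, and no call by adjusted p changed under the block. The unadjusted p of the brighter Traf2 probe was 0.0305 and rose to 0.0683 and 0.0720 under the blocks, 0.277 without scaling, 0.0643 with no filter on dim probes and 0.0533 to 0.122 with an array left out. Without scaling 1 member probe, that of Traf1, was at or above 1.5-fold in the male pair, and with no filter on dim probes 1, the dimmer Traf7 probe. The limma difference of members not called changed sign without scaling for Traf3 (0.075), Traf4 (0.0043), Traf5 (0.10), the brighter Traf7 probe (0.070) and the dimmer Tank probe (0.068), and with normexp for Ripk1 (-0.11). With an array left out, Ripk1 lay between -0.063 and 0.21, Traf5 between -0.11 and 0.081 and the dimmer Tank probe between -0.13 and 0.032. The causes were not tested.

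In the pair labelled male, 1367 probes reached 1.5-fold and 1096 lay at 0.67-fold or less. Without scaling these were 1920 and 944. The first count was 527 with normexp, 2076 with no floor, 571 with detection on all arrays compared and 5547 with no filter, and at 2-fold 489. The second was 401, 2876 and, at 0.5-fold, 690 under the last 3 of these. In the pair labelled female the counts were 1477 and 1127, against 2317 and 941 without scaling, 368 and 676 with normexp, 356 and 490 with detection on all arrays compared, 4187 and 10647 with no filter, and 556 and 723 at 2-fold and 0.5-fold. In the pair labelled male, 1 pathway gene reached 1.5-fold and 2 lay at 0.67-fold or less without scaling. Signal over background limits Ripk1, Traf5 and the dimmer probes of Tank and Traf2 the most, and the number of arrays limits all results.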
